A study of Mus musculus with 8 samples.

Results

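The replication-dependent histone genes encode the core histones H2A, H2B, H3 and H4 and the linker histone H1, and in the mouse they lie in gene clusters named Hist1 to Hist4. Members were taken as every gene whose GENCODE M21 symbol begins with Hist1, Hist2, Hist3 or Hist4, which gave 70 annotated genes, 67 of them protein-coding and 3 pseudogenes. Of these, 68 were among the 29621 genes measured, and the levels of Hist1h2bm and Hist1h2bh were not analysed here. By the symbol, 6 of the measured genes were H1, 20 were H2A, 17 were H2B, 12 were H3 and 13 were H4. They were measured by bulk RNA sequencing in 4 KPC-OG and 4 KPC libraries, made from the pancreas of C57BL/6 mice aged 6 weeks (postnatal day 42). KPC-OG mice carried p48-Cre, which is driven by the locus of the pancreatic transcription factor Ptf1a, a Cre-activated oncogene allele, Trp53fl/fl and R26tm1(LSL-OG), an allele at the R26 locus behind a stop that Cre removes. KPC mice carried the same alleles without R26tm1(LSL-OG), so the Cre driver, the oncogene allele and the floxed Trp53 were shared by both groups. The comparison asked how the pancreas of KPC-OG mice, which the series presents as an antigenic form of the model, differed from that of KPC mice. The histone family was picked because of how it moved in this same contrast, so its KPC-OG over KPC values, and which of its genes passed a threshold, are given as a description only and support nothing, and no p-value of a member is printed.

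Replication-dependent histone messages accumulate during S phase, when new DNA has to be packed into nucleosomes, and are degraded when DNA synthesis stops. They are the main class of animal messenger RNA without a poly(A) tail: the message ends shortly after a stem-loop that is bound by the stem-loop binding protein Slbp and processed with the help of the U7 small nuclear ribonucleoprotein. H2A, H2B, H3 and H4 form the nucleosome core, whereas H1 binds the linker DNA between cores. Because the libraries were made from total RNA after ribosomal depletion, messages without a poly(A) tail could enter them.

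The deposited files held estimated reads and length-normalised abundances (TPM) for each indexed transcript, and estimated reads were summed to genes. A library held 13671606 to 18292115 estimated reads in KPC-OG and 7373286 to 11292570 in KPC, and 18680 to 20062 genes were detected in KPC-OG libraries against 15072 to 16520 in KPC libraries. The single gene Lars2 took 3.73% to 7.11% of gene-level counts in KPC-OG and 20.8% to 30.0% in KPC. Levels are therefore given as CPM after scaling by trimmed mean of M-values factors (TMM-scaled CPM, where CPM scales counts to 1 common library total), and these factors were 1.14 to 2.28 in KPC-OG and 0.483 to 0.653 in KPC. Whether the 4 libraries of a genotype stand for 4 mice is not said in the labels, so every p-value and standard error measures the spread between libraries only. In bulk tissue, fewer cells of a type and less RNA per cell cannot be told apart.

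The stem-loop at the end of the message is the feature that sets these genes apart from other messenger RNAs, and 44 of the 68 transcript models contained a match of 16 bases to it. For 41 of these the position was read from the genome (GRCm38). The stem and loop are in capitals in the following stretches, with 5 bases on either side, 5′ to 3′ on the strand of the gene. The H2A gene Hist1h2ab (plus strand, chr13:23751567-23751592) and the linker gene Hist1h1c (plus strand, chr13:23739507-23739532) carried the commonest form, Hist1h3c (minus strand, chr13:23745042-23745067) a form with another loop base, and Hist1h4d (plus strand, chr13:23581945-23581970) a form found here in H4 genes only.
Hist1h2ab: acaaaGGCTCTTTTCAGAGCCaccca
Hist1h1c: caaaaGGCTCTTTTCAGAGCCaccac
Hist1h3c: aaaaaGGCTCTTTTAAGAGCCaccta
Hist1h4d: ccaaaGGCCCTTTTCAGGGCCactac
The form of Hist1h2ab and Hist1h1c was found in 21 genes, of which 10 were H2A, 4 were H2B, 4 were H3 and 3 were H1. The form of Hist1h3c was found in 6 genes and that of Hist1h4d in 7 genes, all 7 of them among the 12 H4 genes with a match. Hist1h2ab and Hist1h1c share this stem-loop, and their levels in both groups, with log2 fold changes of 2.04 and -0.11, are set out with their classes.

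Cluster histone genes as a whole took a larger share of the reads in KPC-OG pancreas. Summed over the 68 genes there were 27871, 57834, 13153 and 33434 estimated reads in KPC-OG libraries 1 to 4 and 2301, 4450, 1184 and 3814 in KPC libraries 1 to 4. As a share of gene-level counts this was 0.155%, 0.331%, 0.0981% and 0.226% in KPC-OG, against 0.0212%, 0.0546%, 0.0168% and 0.0362% in KPC. The lowest KPC-OG share lay above the highest KPC share, and the means were 0.202% ± 0.101 in KPC-OG and 0.0322% ± 0.0171 in KPC (SD, n = 4 each). The share does not depend on how reads were divided between near-identical histone genes, but it is lowered in KPC by everything else in the library. After TMM scaling the summed level was 848, 1499, 861 and 995 CPM in KPC-OG and 439, 836, 314 and 644 CPM in KPC. The groups still did not overlap, though KPC-OG 1 and KPC 2 lay close together, and the means were 1051 ± 306 CPM in KPC-OG and 558 ± 230 CPM in KPC (SD, n = 4 each), a ratio of 1.88. KPC-OG 2 was the highest library of its group and KPC 2 the highest of the other.

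**Figure D1:**
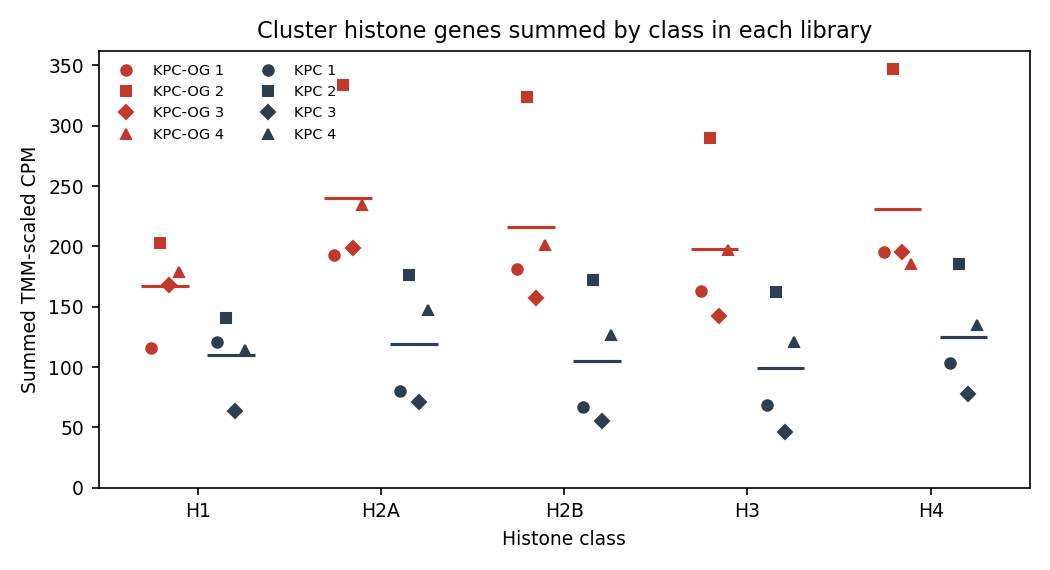
Summed TMM-scaled CPM of the histone genes of each class (x axis) in each library (points, KPC-OG in red and KPC in dark blue, one marker shape per replicate number), with group means as horizontal lines. The H4 sum was 347 CPM in KPC-OG 2 and 185 to 195 CPM in the other KPC-OG libraries, against 78.0 to 185 CPM in KPC, and for H1 the KPC-OG 1 point (116 CPM) lies below those of KPC 1 (121 CPM) and KPC 2 (141 CPM).

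Of the 68 genes, 60 passed the filter on low counts (about 0.824 CPM, before TMM scaling, in at least 4 libraries). These 60 were fitted with edgeR's quasi-likelihood test over all 14267 genes that passed the filter. Only 35 of the 60 reached that level in all 4 KPC libraries, so many entered through the group in which they were higher. At a threshold of 0.05 on the adjusted p, 18 of 60 were called higher in KPC-OG, where 17.4% of all tested genes were called higher, and 0 were called lower, where 16.6% of all genes were. Since this contrast chose the family, nothing is read from these counts. At an unadjusted p under 0.05 the counts were 37 higher and 1 lower (Hist2h3c1). All genes were not counted at that threshold, so these counts have no background and nothing is read from them either. DESeq2 called 30 of the 60 higher and 1 lower, against 2714 and 2725 of all 14267 genes. For limma-voom the counts were 12 higher and 0 lower, against 1747 and 2374 of all 14267 genes. The median log2 fold change of the 60 genes was 1.06 (range -0.68 to 2.70), against 0.09 over all tested genes, and 56 of the 60 were above 0 where 55.0% of all genes were. In 18 of the 60 every KPC-OG library lay above every KPC library, where 17.6% of all genes had this, and in 0 of the 60 every KPC-OG library lay below, where 17.0% of all genes did. The number called higher moved with single libraries: it was 7 without KPC-OG 2, 10 without KPC-OG 4, 9 without KPC 1, 11 without KPC 3 and 36 without KPC 2. All genes called higher then numbered 1743, 1689, 1890, 2139 and 2474 in the same order, against 2486 with every library. Of the 18 genes themselves, 7 remained called without KPC-OG 2, 9 without KPC-OG 4, 9 without KPC 1, 11 without KPC 3 and 16 without KPC 2, and 10 were also called by limma-voom. With library sizes alone in place of TMM factors, the median of all genes moved by 1.74 on the log2 scale. Relative to the median of all genes, the histone median was 0.98 with TMM and 0.99 with library sizes alone, and with that shift taken out 56 of the 60 were above 0 in both.

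**Figure D2:**
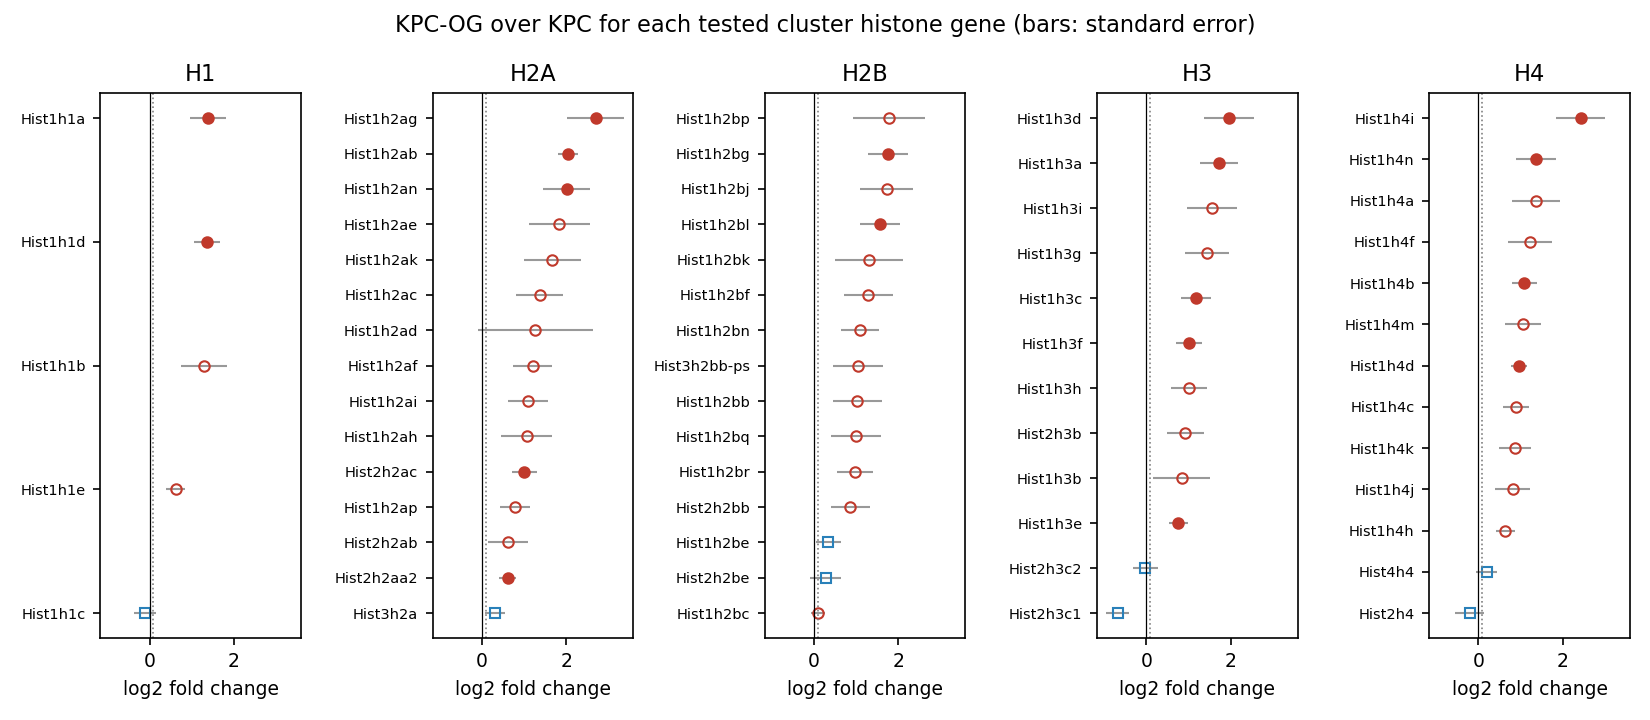
Log2 fold change of KPC-OG over KPC for each of the 60 tested histone genes by class, with the standard error as a bar; the dotted line is the median of all tested genes (0.09). Filled markers are the 18 genes called higher, circles have an indexed transcript under 1000 bases and squares one of 1000 bases or more. The 8 squares lie between -0.68 and 0.34 and none is filled.

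The linker histones were split. Of 5 tested H1 genes, 2 were called higher, and the median log2 fold change was 1.29 (range -0.11 to 1.38). Hist1h1d (chr13:23553262-23560686) had 26.5, 50.6, 43.2 and 35.8 CPM in KPC-OG, against 11.6, 25.4, 10.1 and 13.3 CPM in KPC. The lowest KPC-OG library was just above the highest KPC library, and the log2 fold change was 1.36 ± 0.30 (SE). Hist1h1a, the other called gene, had 9.47, 22.5, 10.8 and 15.3 CPM in KPC-OG and 3.44, 6.20, 2.12 and 9.96 CPM in KPC. KPC 4 overlapped the KPC-OG range, and the log2 fold change was 1.38 ± 0.43. Hist1h1b had 10.4 to 22.4 CPM in KPC-OG and 1.59 to 10.1 CPM in KPC, with no overlap and no call (log2 fold change 1.29 ± 0.54). The 2 linker genes with the most reads, a count that also grows with transcript length, are given next. Hist1h1c had 33.0, 48.9, 55.6 and 50.1 CPM in KPC-OG and 63.2, 62.5, 28.4 and 47.6 CPM in KPC, so the groups overlapped across their whole range (log2 fold change -0.11 ± 0.25, and 0.26 with log2(TPM + 1) once the 1.23 by which that scale moved the median of all genes was taken out). Hist1h1e had 36.7, 58.5, 46.3 and 63.6 CPM in KPC-OG, against 41.4, 37.0, 21.2 and 33.3 CPM in KPC, with KPC 1 and KPC 2 inside the KPC-OG range (log2 fold change 0.62 ± 0.23, not called). As a share of all histone reads, Hist1h1c took 3.26% to 6.45% in KPC-OG and 7.39% to 14.4% in KPC. The testis-specific linker gene Hist1h1t reached at most 0.155 CPM in KPC-OG and 0.265 CPM in KPC and was not tested.

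H2A held the gene with the largest log2 fold change of the family. Of 15 tested H2A genes 5 were called higher, all 15 were above 0, and the median was 1.21 (range 0.31 to 2.70). Hist1h2ag had 4.90, 8.45, 5.70 and 6.13 CPM in KPC-OG, against 0, 2.44, 0 and 1.18 CPM in KPC. Its groups did not overlap and 2 KPC libraries had no read, and its log2 fold change of 2.70 ± 0.67 is poorly bounded at these low counts. Hist1h2ab (chr13:23751126-23751598) had 17.9, 23.5, 15.7 and 18.8 CPM in KPC-OG and 3.06, 6.76, 3.72 and 4.73 CPM in KPC. The lowest KPC-OG library was at more than double the highest KPC library, and the log2 fold change was 2.04 ± 0.23. Hist1h2an had 7.92 to 13.9 CPM in KPC-OG and 0 to 4.88 CPM in KPC (log2 fold change 2.01 ± 0.55). Hist2h2ac had 11.9 to 19.5 CPM in KPC-OG and 3.82 to 12.0 CPM in KPC (log2 fold change 1.01 ± 0.29), with KPC 2 just inside the KPC-OG range. Hist2h2aa2 was the most abundant H2A gene, with 63.5, 96.8, 79.1 and 73.6 CPM in KPC-OG and 45.8, 60.9, 36.4 and 61.3 CPM in KPC. Its groups were separate by a small margin and its log2 fold change was 0.61 ± 0.20. The files also list its neighbour Hist2h2aa1, which was not tested, and no 20-base stretch of Hist2h2aa2 was its own, so its reads could also be assigned to other H2A genes. Hist1h2ai and Hist1h2ap, also abundant, had 14.4 to 35.0 and 16.3 to 32.3 CPM in KPC-OG and 2.92 to 18.8 and 6.63 to 18.1 CPM in KPC, and neither was called.

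For H2B, the dimer partner of H2A, 2 of 15 tested genes were called higher, all 15 were above 0 and the median log2 fold change was 1.05 (range 0.09 to 1.78). Hist1h2bg (chr13:23571396-23572013) had 27.8, 50.5, 25.6 and 29.1 CPM in KPC-OG, against 4.20, 17.8, 3.72 and 13 CPM in KPC. No KPC library reached the KPC-OG range, and the log2 fold change was 1.75 ± 0.47. Hist1h2bl had 15.2, 26.5, 8.18 and 17.2 CPM in KPC-OG and 2.10, 10.7, 3.72 and 6.08 CPM in KPC, with KPC-OG 3 below KPC 2 (log2 fold change 1.56 ± 0.48). Hist1h2bj had 18.3 to 44.2 CPM in KPC-OG and 1.33 to 13.5 CPM in KPC without overlap, but its standard error was wide and it was not called (log2 fold change 1.72 ± 0.62). Hist1h2bp, with the highest fold change of the class, was measured at 0.822 to 2.54 CPM in KPC-OG and 0 to 1.69 CPM in KPC, too low to place (1.78 ± 0.85). Hist1h2bn had 19.3 to 41.1 CPM in KPC-OG and 5.35 to 24.8 CPM in KPC and was not called. Hist1h2bc stood at the other end, with 29.9, 34.2, 25.5 and 32.7 CPM in KPC-OG and 33.6, 32.9, 22.6 and 25.8 CPM in KPC. Its groups overlapped nearly in full, the log2 fold change was 0.09 ± 0.16, and its share of histone reads was 2.28% to 3.53% in KPC-OG and 3.93% to 7.65% in KPC.

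For H3, which with H4 forms the central tetramer of the nucleosome, 5 of 12 genes were called higher and the median log2 fold change was 1.01 (range -0.68 to 1.96). Hist1h3d (chr13:23575763-23577011) had 4.44, 9.02, 4.52 and 9.26 CPM in KPC-OG, against 0.955, 1.88, 0 and 3.71 CPM in KPC. The groups were separate and the log2 fold change was 1.96 ± 0.60. Hist1h3a had 4.06 to 9.41 CPM in KPC-OG and 0.382 to 2.70 CPM in KPC (log2 fold change 1.73 ± 0.45). Hist1h3c had 9.30 to 21.3 CPM in KPC-OG and 2.92 to 10.5 CPM in KPC (1.18 ± 0.36), with KPC 2 above the lowest KPC-OG library. Hist1h3f had 11.8 to 19.8 CPM in KPC-OG and 3.72 to 11.6 CPM in KPC (1.01 ± 0.30), and Hist1h3e had 16.7 to 26.5 CPM in KPC-OG and 7.16 to 14.1 CPM in KPC (0.76 ± 0.22), both without overlap. The H3 genes with the highest levels were not called: Hist1h3h had 24.3 to 64.1 CPM in KPC-OG and 9.02 to 34.6 CPM in KPC, Hist2h3b 23.0 to 51.3 CPM in KPC-OG and 8.76 to 33.2 CPM in KPC, and Hist1h3i 20 to 43.9 CPM in KPC-OG and 2.48 to 19.5 CPM in KPC. For all of these KPC 2 was the highest KPC library. Hist2h3c1 had the lowest log2 fold change of the family, with 3.65, 4.02, 3.73 and 4.05 CPM in KPC-OG and 9.17, 5.26, 3.18 and 6.92 CPM in KPC. The KPC-OG libraries were close together and KPC 3 lay below them, and the log2 fold change was -0.68 ± 0.27.

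For H4, 4 of 13 genes were called higher and the median log2 fold change was 0.96 (range -0.21 to 2.42). Hist1h4d (chr13:23581598-23582735), the most abundant H4 gene, had 44.6, 68.1, 38.3 and 53.9 CPM in KPC-OG, against 25.8, 32.1, 19.6 and 27.7 CPM in KPC. The groups did not overlap and the log2 fold change was 0.96 ± 0.20. Hist1h4i had 2.22, 4.51, 2.68 and 2.20 CPM in KPC-OG and 0, 0.563, 0.531 and 1.01 CPM in KPC. It was low in every library and separate between groups, with the largest log2 fold change of the class, 2.42 ± 0.58. Hist1h4b had 7.01 to 16.1 CPM in KPC-OG and 3.82 to 6.95 CPM in KPC (1.09 ± 0.29), with a narrow margin between the groups. Hist1h4n had 7.23 to 17.4 CPM in KPC-OG and 1.33 to 7.70 CPM in KPC (1.36 ± 0.47), with KPC 2 inside the KPC-OG range. Hist1h4c, Hist1h4k and Hist1h4m, also abundant, had log2 fold changes of 0.88 ± 0.31, 0.87 ± 0.38 and 1.06 ± 0.42 and were not called. Hist2h4 had 4.53 to 8.55 CPM in KPC-OG and 5.04 to 13.1 CPM in KPC (-0.21 ± 0.34).

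**Figure D3:**
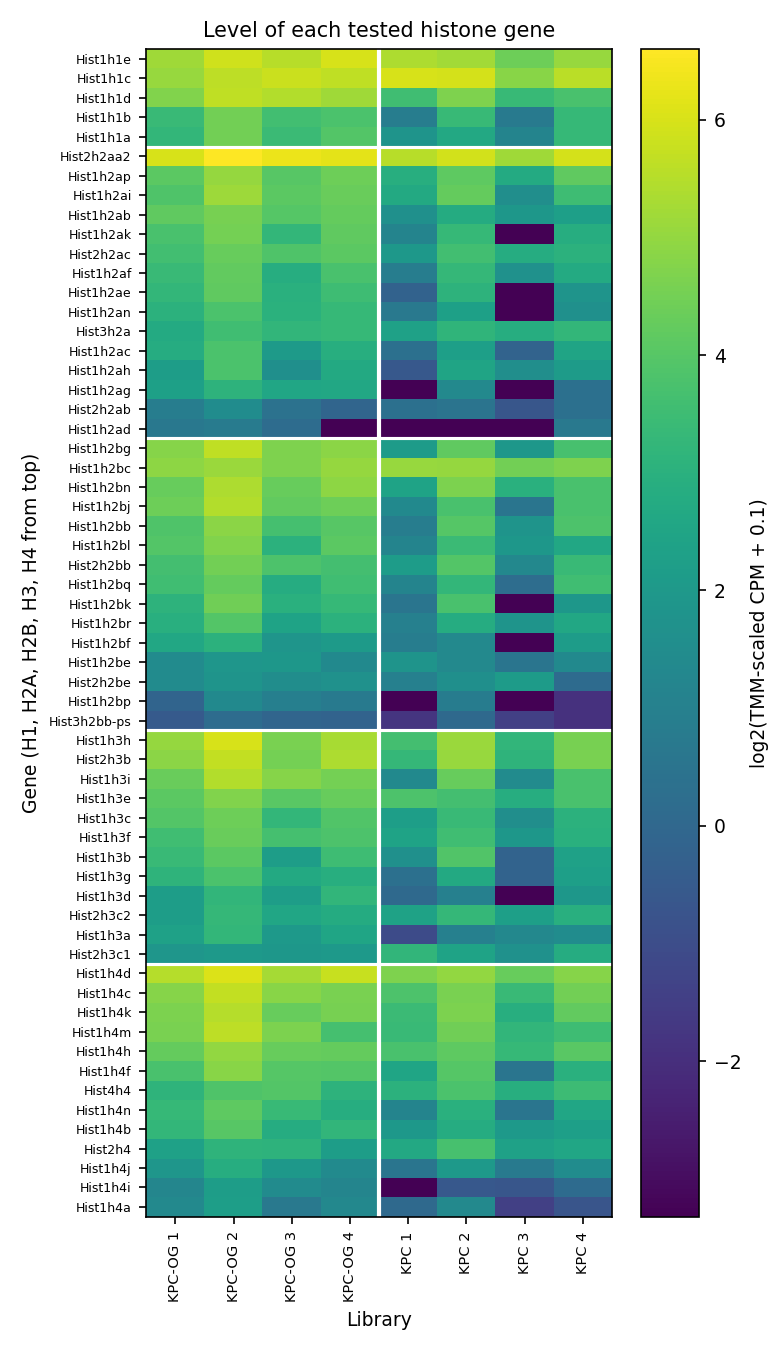
Heat map of log2(TMM-scaled CPM + 0.1) for the 60 tested histone genes (rows, grouped by class and ordered by mean CPM in KPC-OG) in the 4 KPC-OG and 4 KPC libraries (columns, separated by a white line). KPC 1 and KPC 3 hold most of the darkest cells, including the genes with no read there, and Hist1h1c and Hist1h2bc are of like colour in both groups.

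The 5 classes had close medians, 0.96 to 1.29, and the ratio of mean summed levels, KPC-OG over KPC, was 1.51 for H1, 2.02 for H2A, 2.05 for H2B, 1.99 for H3 and 1.84 for H4. The mean H1 sum was 167 ± 36.5 CPM in KPC-OG and 110 ± 33.0 CPM in KPC, with KPC-OG 1 (116 CPM) below KPC 1 (121 CPM) and KPC 2 (141 CPM). By cluster, the Hist1 cluster on chromosome 13 held 48 tested genes, 16 of them called higher, with a median of 1.21. The Hist2 cluster on chromosome 3 held 9 tested genes, 2 called higher, with a median of 0.61. Neither of the 2 tested Hist3 genes on chromosome 11 was called, with Hist3h2a at 0.31 ± 0.24 and the pseudogene Hist3h2bb-ps at 1.05 ± 0.59. Hist3h2ba was not tested, at 0.327 to 1.01 CPM in KPC-OG and 0 to 0.844 CPM in KPC. The single Hist4 gene, Hist4h4 on chromosome 6, had 8.43 to 15.2 CPM in KPC-OG and 7.43 to 13.7 CPM in KPC (0.19 ± 0.26). The tested Hist1 genes lie in separate stretches of the chromosome. The stretch chr13:21715763-21837530 had a median of 1.09, chr13:22035164-22043676 had 1.72 from 5 genes, and chr13:23531050-23764406 had 1.21. The stretch of 5 genes had the smallest sum, 37.3 to 92.4 CPM in KPC-OG and 4.39 to 35.5 CPM in KPC.

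H2A and H2B genes often share a start region and are read outward from it. There were 14 such divergent pairs, 172 to 305 bases apart, and 11 of them had both genes tested. Both log2 fold changes were above 0 in all 11, as in all 15 tested H2A and all 15 tested H2B genes. Hist1h2ae and Hist1h2bg had 1.84 and 1.75, while Hist1h2ac and Hist1h2bc had 1.37 and 0.09, so the genes of a pair did not always have like values. Start regions of 62 of the 70 annotated members were matched to RefSeq (GRCm38.p6), and 250 bases upstream of the start were searched on both strands. The letters CCAAT were found in 82.3% of the members and 33.8% of all 32851 RefSeq start regions, TATAAA in 46.8% and 12.4%, the octamer ATTTGCAT in 21% and 1.6%, and AAACACA, the H1 box, in 14.5% and 6.25%. CCAAT was in all 6 H1, 18 of 18 H2A, 16 of 16 H2B, 8 of 10 H3 and 3 of 12 H4 regions. The octamer was found in 7 H2A and 6 H2B regions and in 0 of the others, and the H1 box in 5 of 6 H1 regions. Windows of a divergent pair overlap each other, so these counts are not independent, and a match is a run of letters and not a measured binding site. The last 120 bases before the start are printed for 4 genes, 1 each of H1, H2A, H2B and H4, written on the plus strand, with matches in capitals (ATTGG is CCAAT on the other strand). Positions are chr13:23738687-23738806 for Hist1h1c, chr13:23750968-23751087 for Hist1h2ab, chr13:23571280-23571399 for Hist1h2bg and chr13:23581448-23581567 for Hist1h4d.
Hist1h1c: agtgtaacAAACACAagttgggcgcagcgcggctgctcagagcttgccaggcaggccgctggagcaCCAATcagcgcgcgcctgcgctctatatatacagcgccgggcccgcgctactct
Hist1h2ab: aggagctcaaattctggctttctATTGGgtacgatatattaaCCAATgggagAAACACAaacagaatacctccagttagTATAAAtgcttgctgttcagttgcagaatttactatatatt
Hist1h2bg: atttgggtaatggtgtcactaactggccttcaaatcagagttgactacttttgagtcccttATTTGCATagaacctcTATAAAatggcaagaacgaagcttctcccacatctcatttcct
Hist1h4d: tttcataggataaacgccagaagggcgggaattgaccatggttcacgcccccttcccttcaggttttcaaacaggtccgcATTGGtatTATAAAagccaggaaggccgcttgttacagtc
Hist1h1c has the H1 box and CCAAT in its window, Hist1h2ab has CCAAT, the H1 box and TATAAA, Hist1h2bg the octamer and TATAAA, and Hist1h4d CCAAT and TATAAA.

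The indexed transcript of most histone genes is under 1000 bases in total length, but that of 8 genes has 1000 bases or more. A split at that length was chosen after the values were seen. For the 8 genes with the longer transcript, which are Hist3h2a, Hist1h2be, Hist1h1c, Hist2h2be, Hist2h3c2, Hist2h3c1, Hist2h4 and Hist4h4, edgeR called 0 in either direction (unadjusted 0 higher and 1 lower, DESeq2 0 and 1, limma-voom 0 and 0). Their median log2 fold change was 0.09 (range -0.68 to 0.34), and their summed level was 67.0, 105, 104 and 89.5 CPM in KPC-OG and 102, 119, 61.6 and 91.9 CPM in KPC. For the 52 tested genes with a transcript under 1000 bases, 18 were called higher and the median was 1.14 (range 0.09 to 2.70). Over all 60 measured genes of that length, tested or not, the summed level was 781, 1394, 757 and 906 CPM in KPC-OG. In KPC it was 337, 717, 253 and 552 CPM. The longer set took 6.98% to 12.1% of histone reads in KPC-OG and 14.2% to 23.3% in KPC, with no overlap. Transcript length moved with the fold change in other genes too: among all other tested genes, 31.6% of 1463 under 1000 bases were called higher, with a median of 0.50, and 15.7% of 12744 of 1000 bases or more, with a median of 0.04. The part of length in the histone values was not tested.

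**Figure D4:**
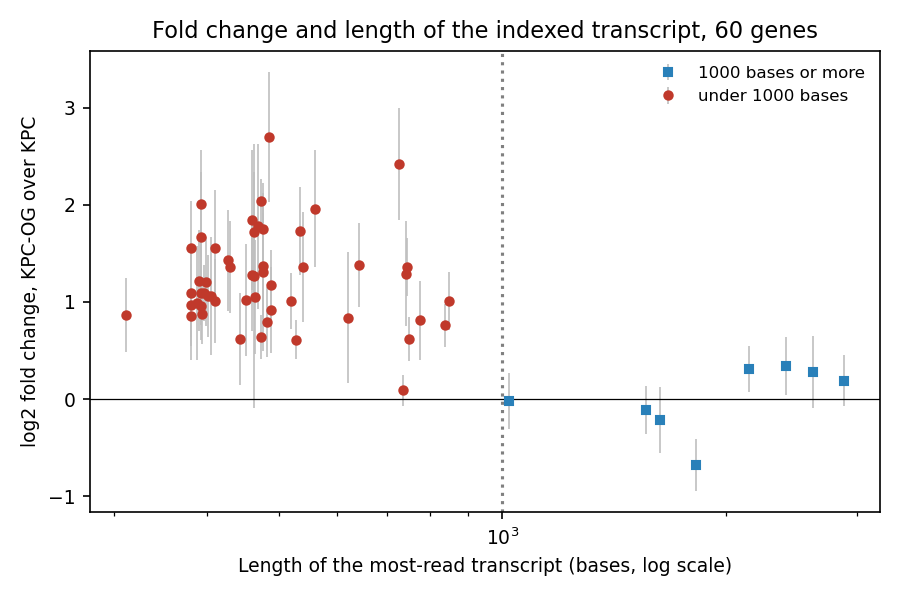
Log2 fold change of KPC-OG over KPC with standard error (y axis) against the length in bases of the most-read indexed transcript (x axis, log scale) for the 60 tested histone genes; the dotted line is at 1000 bases. The 8 genes to its right lie between -0.68 and 0.34 and the 52 to its left between 0.09 and 2.70.

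Levels can be set between genes only per unit of length, and TPM gives that. By mean TPM the highest members were Hist2h2aa2 with 382 ± 138 TPM in KPC-OG and 81.0 ± 25.9 TPM in KPC, and Hist1h4d with 352 ± 162 TPM in KPC-OG and 56.6 ± 16.6 TPM in KPC (SD, n = 4 each). Hist1h3h (269 ± 158 TPM in KPC-OG, 42.1 ± 29.4 TPM in KPC) and Hist1h4k (250 ± 142 TPM in KPC-OG, 43.4 ± 26.8 TPM in KPC) followed. The SDs hold a spread between libraries that these genes share. Library by library in KPC-OG, Hist2h2aa2 (303, 540, 236 and 449 TPM) lay above Hist1h4d (289, 518, 155 and 448 TPM). Hist1h4d in turn lay above Hist1h3h (204, 464, 94.0 and 315 TPM) in each. Hist1h4k (203, 441, 102 and 252 TPM) was below Hist1h3h except in KPC-OG 3. TPM values carry no TMM scaling, so their group ratios also hold a shift of all genes (1.60 on the log2 scale for log2(TPM + 0.1)). Among the 47 genes whose transcript has the same length in the files and in M21, a median of 26.1% of 20-base stretches were found in no other annotated transcript (range 0% to 94.2%). The share was under 10% for 15 of them and over 50% for 13. Near-identical genes therefore share reads, and the value of a single gene with few stretches of its own is uncertain. Among such genes are Hist2h2aa2 (0%), Hist1h3h (2%) and Hist1h4k (7.2%), so their places by TPM are uncertain too, and Hist1h2ai (3.20%). Most stretches of Hist1h1c (84.2%), in contrast, are its own. The indexed transcript of Hist1h4d differs in length from that of M21, so no such share is given for it. Overlap with another gene on the same strand adds to this for Hist1h1e and Hist1h2be, which overlap each other, for Hist3h2a (Trim17) and for Hist2h2bb (Gm42743). The 8 members that did not pass the filter were Hist3h2ba, Hist1h2aj, Hist1h2ao, Hist1h1t, Hist1h2ba, Hist1h2aa, Hist1h2al and Hist2h2aa1, and none exceeded 1.63 CPM in KPC-OG or 4.32 CPM in KPC. The value of 4.32 CPM was Hist1h2ao in KPC 2, and that gene had 0 in all other libraries.

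Other genes of histone supply were given by 5 lists that hold no cluster histone. Their counts are to be read against all tested genes, of which 17.4% were called higher and 16.6% lower. Of the 27 genes of histone messenger RNA metabolism, 2 rose and 2 fell, with a median log2 fold change of -0.09. Slbp, the stem-loop binding protein, had 11.9, 14.0, 11.9 and 12.0 CPM in KPC-OG and 5.73, 8.64, 7.70 and 10.6 CPM in KPC, without overlap (log2 fold change 0.60 ± 0.18, edgeR adjusted p = 0.0287). Ncbp2, a subunit of the nuclear cap-binding complex, rose by 0.58 ± 0.20 (edgeR adjusted p = 0.0446). Xrn1, the cytoplasmic 5′ to 3′ exonuclease, fell by 0.63 with an SE of 0.16 (edgeR adjusted p = 0.0135), and Upf1, a helicase that takes part in histone message decay, fell by 0.48 with an SE of 0.13 (edgeR adjusted p = 0.0193). The Slbp call was lost without any of KPC-OG 1, 2 or 4 or KPC 1, 2 or 3 (edgeR adjusted p 0.0502 to 0.0847), that of Upf1 without KPC-OG 2, KPC 1 or KPC 4 (0.0522 to 0.0636), and that of Ncbp2 without any single library other than KPC-OG 3 (0.0524 to 0.128) and with limma-voom (0.0822).

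Other histone genes, listed as replication-independent, numbered 10 tested genes, of which 3 rose and 1 fell (median 0.43). H3f3a, a replacement H3 gene, had 124, 140, 106 and 124 CPM in KPC-OG, against 60.5, 76.4, 62.9 and 76.3 CPM in KPC, with no overlap (log2 fold change 0.84 ± 0.14, edgeR adjusted p = 0.00225). H2afy, which encodes macroH2A, rose by 0.62 ± 0.15 (edgeR adjusted p = 0.00933), and H2afv, a member of the H2A.Z group, by 0.47 ± 0.16 (edgeR adjusted p = 0.0447). H1f0, the linker histone of resting and differentiated cells, had 64.4, 56.3, 69.9 and 72.4 CPM in KPC-OG and 156, 115, 98.7 and 132 CPM in KPC. Every KPC library was higher, and the log2 fold change was -0.93 ± 0.17 (edgeR adjusted p = 0.00255). Of 18 histone chaperone and import genes, 2 rose and 1 fell: the histone-binding protein Rbbp7 by 0.53 ± 0.16 (edgeR adjusted p = 0.0285), the H1 and H3 chaperone Nasp by 0.54 ± 0.18 (edgeR adjusted p = 0.0407), and the importin Ipo4 at -0.92 ± 0.16 (edgeR adjusted p = 0.00259). The H2afv call was lost without any of KPC-OG 1, 2 or 4 or KPC 1, 2 or 3 (edgeR adjusted p 0.0672 to 0.126) with limma-voom (0.0798) and with no filter on low counts (0.0504), and those of Rbbp7 and Nasp without any of KPC-OG 1, 2 or 4 or KPC 1, 3 or 4 (0.0583 to 0.114), with Rbbp7 also lost with limma-voom (0.0568).

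Genes of DNA replication and S phase, the period in which cluster histones are made, were mostly not called. Of 34 genes edgeR called 0 higher and 3 lower (unadjusted 1 higher and 4 lower, DESeq2 0 higher and 4 lower, limma-voom 1 higher and 3 lower), with a median log2 fold change of 0.14. Cdc25a, the phosphatase that lets cells enter S phase, had 17.4, 15.6, 20 and 12.3 CPM in KPC-OG, against 33.2, 30.1, 34.5 and 32.4 CPM in KPC (log2 fold change -1.0 ± 0.15, edgeR adjusted p = 0.00143). E2f1, a transcription factor of S-phase entry, had 2.10 to 2.53 CPM in KPC-OG and 4.01 to 5.07 CPM in KPC (-0.96 ± 0.21, edgeR adjusted p = 0.00693), and Fen1, the flap endonuclease, 5.89 to 7.75 CPM in KPC-OG and 8.23 to 11.7 CPM in KPC (-0.68 ± 0.17, edgeR adjusted p = 0.0127). Of 20 mitosis genes 1 rose, Kif23, a kinesin of cell division (1.12 ± 0.35, edgeR adjusted p = 0.0312), and its call was lost without any of KPC-OG 1, 2 or 4 or KPC 1 or 3 (0.0533 to 0.0899). The proliferation marker Mki67 had 28.7, 31.1, 21.3 and 28.5 CPM in KPC-OG and 33.6, 83.6, 26.3 and 43.6 CPM in KPC, and the difference did not pass (log2 fold change -0.77 ± 0.32, edgeR adjusted p = 0.0891). With library sizes alone in place of TMM factors, 0 of these 109 companion genes were called lower and 105 were called higher, and 0 were called lower with TPM, so the directions above hold relative to the median of all genes.

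Several measures moved with the libraries. The summed level of the mitosis genes was 160, 161, 98.0 and 144 CPM in KPC-OG and 105, 273, 82.8 and 151 CPM in KPC, and that of the S-phase genes was 239, 274, 212 and 247 CPM in KPC-OG and 206, 322, 184 and 237 CPM in KPC. KPC 2 was highest for both and also had the highest histone sum of its group. B cell markers summed to 7.31, 153, 82.0 and 51.8 CPM in KPC-OG and 9.93, 87.7, 6.63 and 142 CPM in KPC, and 0 of 8 were called by edgeR, DESeq2 or limma-voom, also at an unadjusted p under 0.05. They were highest in KPC-OG 2, the KPC-OG library with the highest histone sum, and in KPC 4 within KPC. Acinar markers, led by digestive enzyme genes, fell in 10 of 12 genes, with sums of 53783 to 205989 CPM in KPC-OG and 369165 to 588336 CPM in KPC. Where 17.4% of all genes were called higher and 16.6% lower, macrophage markers rose in 8 of 8 genes. Fibroblast markers rose in 7 of 8, duct markers in 6 of 8 and erythroid markers in 3 of 5 tested genes (8 listed). Islet endocrine markers rose in 1 of 7, neutrophil markers in 1 of 4 tested genes (8 listed) and T cell markers in 0 of 7 (8 listed). Endothelial markers rose in 1 of 8 and fell in 1. These directions too are relative to the median of all genes, and the part of these shifts in the histone values was not tested.

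**Figure D5:**
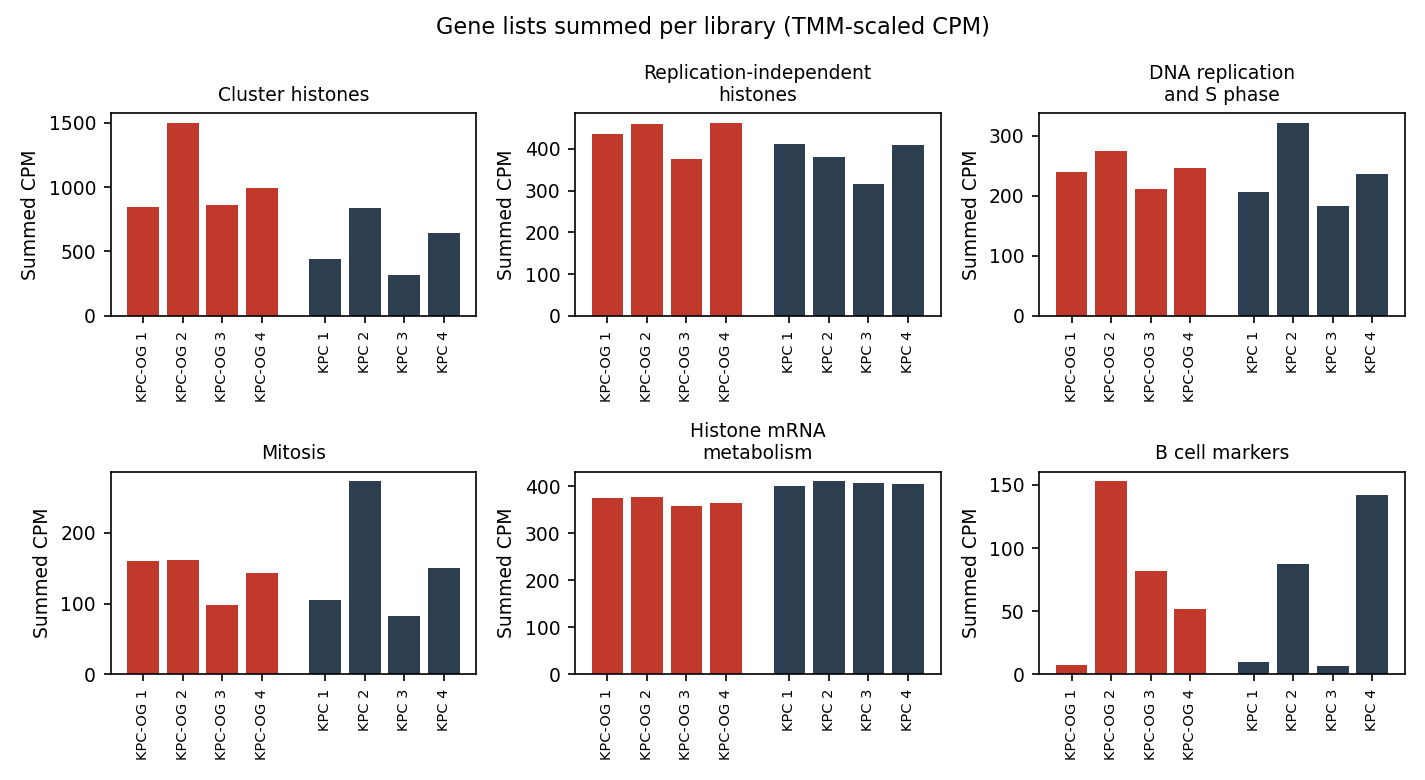
Summed TMM-scaled CPM (y axes, starting at 0) of the cluster histones, 4 companion lists and the B cell markers in each library, KPC-OG in red on the left and KPC in dark blue on the right. The cluster histones were at 848 to 1499 CPM in KPC-OG and 314 to 836 CPM in KPC, while the S-phase sum was at 212 to 274 CPM in KPC-OG and 184 to 322 CPM in KPC.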

How the data were processed

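Pancreas RNA (4 KPC-OG and 4 KPC libraries) was depleted of ribosomal RNA and sequenced on an Illumina instrument, per the labels. The authors ran Sailfish 0.6.3, per the file headers, against an Ensembl release 76 index (20-base k-mers, 1000 iterations, bias-corrected), and the deposited files give estimated counts, TPM and transcript length for 86127 transcripts. Per the submitters' processing notes, STAR 2.0.4b, limma, edgeR and bcl2fastq were among the tools. How strand was handled is not given in these sources.

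Of the transcripts, 83827 matched GENCODE M21 by identifier and 2300 did not. Estimated counts were summed to 29621 genes, rounded, filtered (filterByExpr), TMM-scaled and tested with edgeR 4.0.16 (glmQLFit, glmQLFTest) in R 4.3.3, with Benjamini-Hochberg adjustment over all 14267 tested genes and a threshold of 0.05. No covariate was used. Alternatives were DESeq2 1.42.0, limma 3.58.1 (voom, and log2(TPM + 1) or log2(TPM + 0.1)), library sizes alone, no filter, a replicate block, Lars2 left out, and each library left out in turn. Within each genotype, every pair of libraries differed beyond counting noise (chi-square per degree of freedom at least 14.7). The edgeR script was also tested on simulated data, where it called 38 of 100 planted 2-fold changes and 85 of 100 planted 4-fold changes. A gene that was not called can therefore still differ by 2-fold.

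Members and lists were chosen with earlier results of these data known. Named genes were, in each class, the 4 with the highest mean CPM, the highest and lowest fold change and the called genes, with all Hist3 and Hist4 genes, and in each companion list the called genes; pairs, transcript-length groups and the genes singled out for their share of reads were chosen after their values were seen. Percentages of counts, ratios and sums were computed here. The name of 1 allele is not reported here.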

Additional observations from a re-analysis of the deposited data

Results flagged for a closer look

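In each group of 4 libraries, the highest or lowest value was compared with its nearest neighbour relative to the range of the group (Dixon's criterion). Of 136 such groups 11 held a library that stood apart. The criterion's nominal rate is about 1 in 20 for independent groups. These groups share libraries, and sums such as that of H4 hold genes also taken singly, so the count cannot be set against that rate. KPC-OG 2 stood high in 5 cases: the H4 sum was 347 CPM (185 to 195 CPM in the other KPC-OG libraries), Hist1h2bj was 44.2 CPM (18.3 to 21.3), Hist1h2bg was 50.5 CPM (25.6 to 29.1), Hist1h4c was 52.1 CPM (24.2 to 28.3) and Slbp was 14.0 CPM (11.9 to 12.0). KPC 2 stood high in 3 cases: Hist3h2bb-ps was 0.939 CPM (0.169 to 0.265 CPM in the other KPC libraries), Hist1h2bp was 1.69 CPM (0 to 0.169) and Hist2h4 was 13.1 CPM (5.04 to 6.30). Xrn1 was 29.0 CPM in KPC-OG 3 (19.7 to 21.2 in the others of its group). Fen1 was 8.23 CPM in KPC 3 (11.1 to 11.7) and H2afy 15.9 CPM in KPC 1 (21.2 to 21.3), both low.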

How the results depend on the processing

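The number of histone genes called higher (18) was 59 with library sizes alone, 30 with DESeq2, 60 with log2(TPM + 1), 60 with log2(TPM + 0.1) and 7 to 36 when single libraries were left out. The number called lower (0) was 1 with DESeq2 and 0 to 1 when single libraries were left out. Of the companion genes, 8 were called higher, against 105 with library sizes alone, 105 with log2(TPM + 1), 103 with log2(TPM + 0.1) and 2 to 13 when single libraries were left out. The 7 called lower became 0 with library sizes alone, 0 with both TPM scales, 12 with DESeq2 and 6 to 10 when single libraries were left out. Of all genes, 2486 were called higher and 2373 lower, against 13078 and 99 with library sizes alone, 12946 and 125 with log2(TPM + 1), and 12898 and 123 with log2(TPM + 0.1). These 3 settings moved the median of all genes by 1.23 to 1.74 on the log2 scale. With DESeq2, 2714 of all genes were called higher and 2725 lower. When single libraries were left out, 1689 to 2880 of all genes were called higher and 1705 to 2548 lower. The histone share of counts differed by 0.170 percentage points, and by 0.490 with TPM and 0.127 to 0.205 when single libraries were left out. The log2 fold change of Hist1h1c (-0.11) became 0.26 with log2(TPM + 1), once the 1.23 by which that scale moved the median of all genes was taken out; the cause was not tested. Whether the replicate numbers pair the libraries could not be told. Correlations of same-numbered libraries were 0.274, 0.275, 0.0385 and 0.0361, and those of numbers 1 and 2 were the highest of all pairs. KPC 3, however, was closest to KPC-OG 1 (0.159) and KPC 4 to KPC-OG 2 (0.197). With a replicate block 40 histone genes and 2477 of all genes were called higher. Depth limits the genes below about 1 CPM in KPC.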
